A study of Bos taurus with 6 samples.

Results

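Spliceosomal small nuclear RNAs (snRNAs) do their work as particles with protein, the snRNPs. Most are transcribed by RNA polymerase II from promoters recognized by the SNAP complex (SNAPc), cut at the 3′ end by the Integrator complex, exported, and given a ring of Sm proteins by the SMN complex, whose other subunits are the Gemins. U6 snRNA takes a different route and carries a ring of LSM proteins, and other LSM proteins act on messenger RNA. The genes for these proteins were taken from the read counts of longissimus thoracis (LT) muscle as every symbol that starts with INTS, SNAPC, LSM or GEMIN and a digit, or with SNRP. This gave 51 of the 23015 rows of the count table, chosen by symbol, with earlier results of these data known. They comprised 15 Integrator genes, 5 SNAPc genes, 8 Sm core genes, 4 genes for proteins of the U1 and U2 particles, 8 genes from LSM1 to LSM8, 5 genes from LSM10 to LSM14B and 6 Gemin genes. Related proteins with other symbol stems, such as SNRNP70 and SMN, are described with the rest of the pathway. The question was whether the genes for proteins that make or bind snRNA differed between the groups as the snRNA genes did.

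The libraries came from 6 Korean cattle (Hanwoo) steers, castrated males fed commercial feeds, with 1 library per steer. High-NFMP steers had many fine marbling particles in the LT (3-8, 10-8 and 10-9, aged 32.5, 33.8 and 34.5 months), and low-NFMP steers had few (3-1, 3-3 and 10-16, aged 37.8, 33.7 and 35.4 months). The animals were chosen for NFMP and not assigned to it, no treatment was given, and each high-NFMP steer was younger than at least 2 of the low-NFMP steers. The paper also reports a higher marbling score and a larger rib eye area for the sequenced high-NFMP steers. Differences that go with particle number and with marbling score cannot be told apart here. Counts per library summed to between 16283873 and 17192750, and the 51 genes held between 0.081% and 0.0975% of them. The tissue is a piece of muscle that also holds fat, vessels and connective tissue, so a lower count from fewer cells of a type and from less RNA per cell cannot be told apart. All 10 skeletal muscle markers were tested and none had an unadjusted p below 0.05. Of the 7 adipocyte markers, 3 (ADIPOQ, CIDEC and PLIN4) had an unadjusted p below 0.05, all with higher counts in the high-NFMP group, and the summed normalised count of the 7 was 11900, 6830 and 5080 in the high-NFMP steers 3-8, 10-8 and 10-9 and between 4827 and 6144 in the low-NFMP steers. Of the 5 fibroblast and progenitor markers PDGFRA alone had an unadjusted p below 0.05, lower in the high-NFMP group with the groups apart (log2 fold change -0.51, high over low NFMP). None of the 4 endothelial and 5 macrophage and leukocyte markers had such a p, though CSF1R (0.73) and CD14 (0.57) were higher and CDH5 (-0.16) was lower in all high-NFMP steers than in all low-NFMP steers. The part of these cell types in the results below was not tested.

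None of the 51 genes was higher in the high-NFMP group past the threshold of the study (a fold change above 2 together with an unadjusted p below 0.05), and 1, INTS12, was lower. In the comparison by edgeR's quasi-likelihood test, 3.9% of the 15039 tested rows passed that threshold, 2.53% as higher and 1.36% as lower. At an unadjusted p below 0.05 alone there were 5 genes, all lower in the high-NFMP group: INTS12, INTS13, LSM12, LSM14A and LSM5. In 5 of 14 alternative fits 1 gene was called as higher at that p, INTS1 in 4 of them and LSM2 in the fit with age as a term, and further genes were called as lower in some (INTS8 in 5, and INTS6, INTS6L and SNRPF in 1 each). The 5 genes were 9.8% of the 51, whereas 11.5% of all tested rows had such a p in either direction, 5.73% as higher and 5.74% as lower. No gene had an adjusted p below 0.05 by edgeR (smallest 0.245, for LSM14A), by DESeq2 or by limma after quantile normalization, against 0.685% of all tested rows by edgeR. All 51 genes passed the filter on low counts.

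The fold changes of the 51 genes were small. Log2 fold changes (high over low NFMP) ranged from -1.10 for INTS12 to 0.71 for INTS1, with a median of -0.09, beside a median of 0.02 over all tested rows. Below 0 lay 32 of the 51 (62.7%), beside 48.1% of all tested rows. The 95% interval of the log2 fold change stayed between -1 and 1, thus within a 2-fold change either way, for 39 of the 51 genes (76.5%). It did so for 57.3% of all tested rows and for 61.1% of the tested protein-coding rows. These rows were not matched to the 51 genes in count level, on which the width of an interval depends. An interval reached -1 in 10 genes and 1 in 2 genes, INTS1 and LSM11. In 9 genes (17.6%) all high-NFMP steers lay below all low-NFMP steers and in none above, whereas the groups did not overlap in 17.1% of all tested rows, 9.16% with the high-NFMP steers below and 7.97% above. These 9 were GEMIN7, INTS10, INTS12, INTS13, LSM5, LSM8, LSM12, LSM14A and SNAPC5.

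**Figure D1:**
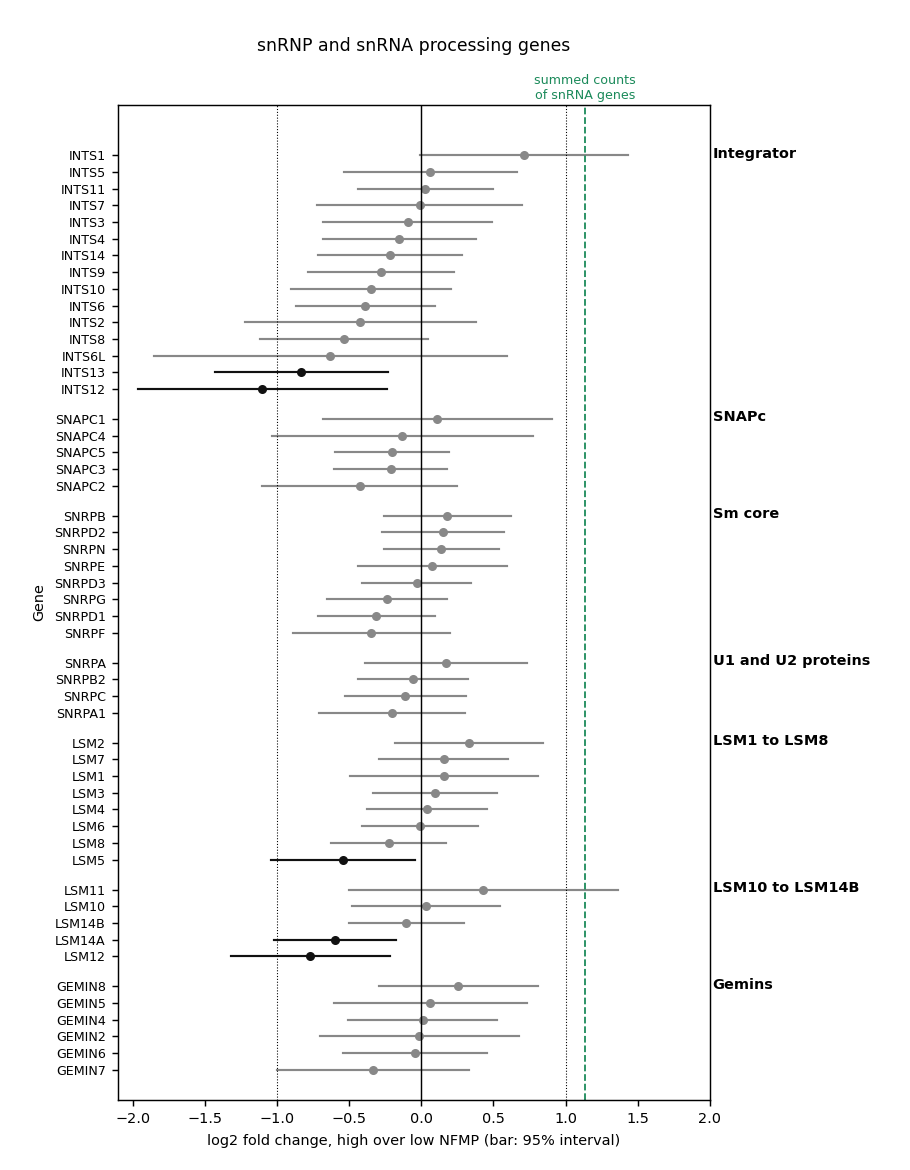
Log2 fold change of each of the 51 genes (points, high over low NFMP) with its 95% interval (bars), grouped by role, with the genes at an unadjusted p below 0.05 in black. Dotted lines mark a 2-fold change and the dashed line the log2 ratio of the summed snRNA gene counts (1.13). INTS12 lies lowest at -1.10 and INTS1 highest at 0.71.

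The snRNA genes of the same libraries moved otherwise. The summed normalised count of the 280 rows that RefSeq types as snRNA was 8826, 5403 and 6353 in the high-NFMP steers 3-8, 10-8 and 10-9, against 3169, 2949 and 3258 in the low-NFMP steers 3-1, 3-3 and 10-16. Every high-NFMP steer thus lay above every low-NFMP steer, and the ratio of the group means was 2.20, or 1.13 on the log2 scale. The summed count of the 51 protein genes was 13364, 15011 and 15571 in the same high-NFMP steers and 15877, 15142 and 15460 in the low-NFMP steers. Here the groups overlapped, with a ratio of 0.946, and steer 3-8, highest in snRNA counts, was lowest. For 49 of the 51 genes (96.1%) the 95% interval of the log2 fold change ended below 1.13, and the exceptions were INTS1 and LSM11. The interval also ended below 1.13 for 79.8% of all tested rows and 82% of the tested protein-coding rows, not matched in count level. That ratio was taken as a fixed value, without its own error. Of the 280 snRNA rows, 65 were tested, 43 were past the threshold as higher and 1 as lower, but a row could pass the filter through its counts in the high-NFMP group alone, so these counts are a description, and without the filter the median log2 fold change of all 280 rows was 0.53 instead of 1.59. The intervals of 30 of the 51 genes (58.8%) ended below 0.53, beside 41.3% of all tested rows. These intervals come from the filtered fit, whereas 0.53 comes from the unfiltered fit and includes snRNA rows with few counts. The 3 snRNA genes with the most counts did not share one pattern. The log2 fold change was 0.12 (SE, the standard error, 0.26) for LOC112443671 and -0.18 (SE 0.25) for LOC112442456, whereas LOC112444936 was at 319.2, 173.4 and 267.8 normalised counts in the high-NFMP steers and 66.0, 43.5 and 61.6 in the low-NFMP steers, with a log2 fold change at 2.15 (SE 0.29, edgeR adjusted p = 0.00328). The libraries start at poly(A) tails, which mature spliceosomal snRNAs lack, so these counts are not a measure of mature snRNA.

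**Figure D2:**
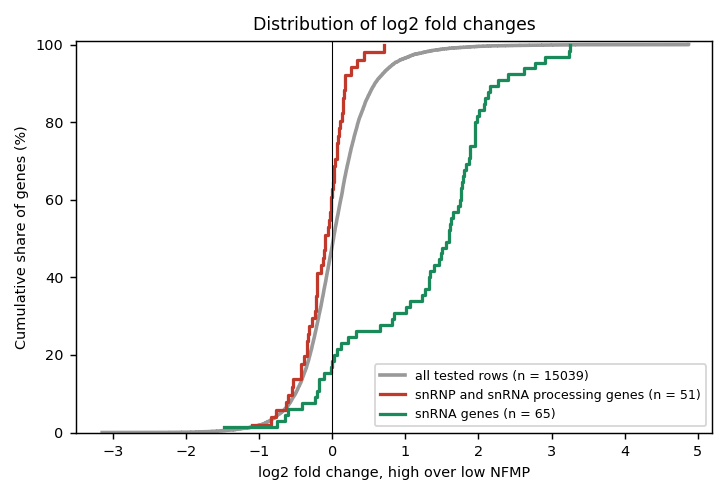
Cumulative share of genes (%) against log2 fold change (high over low NFMP) for all 15039 tested rows, the 51 snRNP and snRNA processing genes, and the 65 tested snRNA genes. The curve of the 51 protein genes has a median of -0.09 and that of all rows 0.02. The snRNA curve has a median of 1.59, but it holds only rows that passed the filter, which could happen through the high-NFMP group alone, and over all 280 snRNA rows without the filter the median was 0.53.

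SNAPc binds the promoter element of snRNA genes and is where the transcription of snRNA begins. Of its 5 genes, none had an unadjusted p below 0.05, and their median log2 fold change was -0.20 (-0.083 with age as a term). SNAPC3, a subunit of the DNA-binding core and the one with the most counts, was at 443.9, 398.9 and 465.4 normalised counts in the high-NFMP steers 3-8, 10-8 and 10-9, and at 516.7, 536.7 and 462.4 in the low-NFMP steers 3-1, 3-3 and 10-16. The groups overlapped through steers 10-9 and 10-16, and the log2 fold change was -0.21 (95% interval -0.60 to 0.18), or -0.12 without steer 10-8. SNAPC2, an accessory subunit, had the smallest p of the complex (unadjusted p = 0.196 by edgeR), with 43.6, 65.6 and 79.2 normalised counts in the high-NFMP steers and 93.8, 88.8 and 70.7 in the low-NFMP steers. Its groups overlapped, and the log2 fold change of -0.43 was -0.22 without steer 3-8. The remaining subunits had log2 fold changes of 0.11 for SNAPC1, -0.13 for SNAPC4, the largest subunit, and -0.20 for SNAPC5. SNAPC5, whose value is the median of the complex, overlaps another gene, MAP2K1, and its counts may hold reads of both. SNAPC1 and SNAPC4 had group means between 27.4 and 40.4 normalised counts, and their intervals reached from -0.68 to 0.91 and from -1.04 to 0.77.

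Integrator holds the endonuclease that releases the 3′ end of the nascent snRNA, and it also stops polymerase early on many protein-coding genes. In 12 of its 15 genes the log2 fold change was below 0, and the median was -0.28. INTS12, a small subunit with a PHD finger, fell past the threshold. Its raw counts were 36, 30 and 15 in steers 3-8, 10-8 and 10-9 (high NFMP), and 51, 83 and 56 in steers 3-1, 3-3 and 10-16 (low NFMP). All high-NFMP steers lay below all low-NFMP steers, at 28.3 ± 11.6 against 60.7 ± 14.5 normalised counts (SD, n = 3 each). The log2 fold change was -1.10 (SE 0.40, edgeR adjusted p = 0.303). It stayed below 0 in all 14 alternative fits, with an unadjusted p below 0.05 in 12 of them. Its place past the threshold rested on single steers. Without steer 10-9 the log2 fold change was -0.78 (unadjusted p = 0.0649 by edgeR) and without steer 3-3 it was -0.90 (unadjusted p = 0.0747 by edgeR), neither past the threshold.

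INTS13 belongs with INTS10 and INTS14 to a module at the edge of the complex. Its normalised counts were 71.9, 82.2 and 90.3 in the high-NFMP steers and 139.7, 190.6 and 105.0 in the low-NFMP steers, the 2 groups being set apart by a narrow gap between steers 10-9 and 10-16. The log2 fold change of INTS13 was -0.83 (SE 0.28, edgeR adjusted p = 0.255). Among steers whose label starts with 3 the log2 ratio of its means was -1.20, and among those whose label starts with 10 it was -0.28. Each label number holds 1 steer of one group and 2 of the other, and what the number stands for is not given. In all 5 genes of low p the groups did not overlap, so a lower mean in the high-NFMP steers within each number follows from that and adds nothing. Without steer 3-3 INTS13 no longer had an unadjusted p below 0.05. Its module partners had log2 fold changes of -0.35 for INTS10, with the groups apart, and -0.22 for INTS14, with the groups overlapping.

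The genes of the cleavage module of Integrator had no unadjusted p below 0.05. INTS11, the endonuclease, had 203.7, 281.2 and 250.7 normalised counts in the high-NFMP steers and 251.7, 205.4 and 264.5 in the low-NFMP steers. The groups covered nearly the same range, and the log2 fold change was 0.03 (95% interval -0.44 to 0.49). INTS9, its inactive partner, was at -0.28 (95% interval -0.79 to 0.23) and INTS4, which holds the pair, at -0.15 (95% interval -0.68 to 0.38).

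INTS1, the largest scaffold subunit, had the highest log2 fold change of the 51 genes. It stood at 142.9, 238.9 and 431.3 normalised counts in the high-NFMP steers 3-8, 10-8 and 10-9 and at 143.5, 169.3 and 183.7 in the low-NFMP steers. Steer 10-9 was far above the rest while steer 3-8 was the lowest of all, and the log2 fold change of 0.71 had an interval from -0.01 to 1.43 (unadjusted p = 0.0533 by edgeR). Its unadjusted p was 0.0361 by DESeq2, 0.0389 without a filter and 0.0487 with at least 10 counts in every library, but 0.195 by limma after quantile normalization and 0.259 with the label number as a term, where the log2 fold change was 0.38. The log2 ratio of its means was -0.13 among steers whose label starts with 3 and 0.87 among those whose label starts with 10. Without steer 3-8 INTS1 was past the threshold at 1.02, and the lowest value with a steer left out was 0.22. Of the other backbone genes, INTS2 was at -0.42, INTS5 at 0.06 and INTS7 at -0.01, none with an unadjusted p below 0.05. INTS6, which with INTS8 links Integrator to the phosphatase PP2A, had the most counts of the complex. Its normalised counts were 258.4, 188.9 and 199.6 in the high-NFMP steers and 341.6, 250.8 and 254.4 in the low-NFMP steers. The groups overlapped by a little through steer 3-8, and the log2 fold change of INTS6 was -0.39 (95% interval -0.87 to 0.09), beside -0.53 for INTS8 (95% interval -1.12 to 0.05). INTS8 had an unadjusted p below 0.05 in 5 of 14 alternative fits, with values down to -0.94 with age as a term, and INTS6 in 1, at -0.54 without steer 3-8. INTS3 was at -0.09, and INTS6L, a rare relative of INTS6 with 8.58 ± 2.82 against 13.4 ± 4.61 normalised counts (SD, n = 3 each), was at -0.63. The counts of the 15 genes together were 1930, 1959 and 2069 in the high-NFMP steers and 2272, 2211 and 2306 in the low-NFMP steers, a ratio of 0.878 with the groups apart, also when scaled to library totals (CPM between 106.7 and 122.8 against 132.8 and 142.3).

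**Figure D3:**
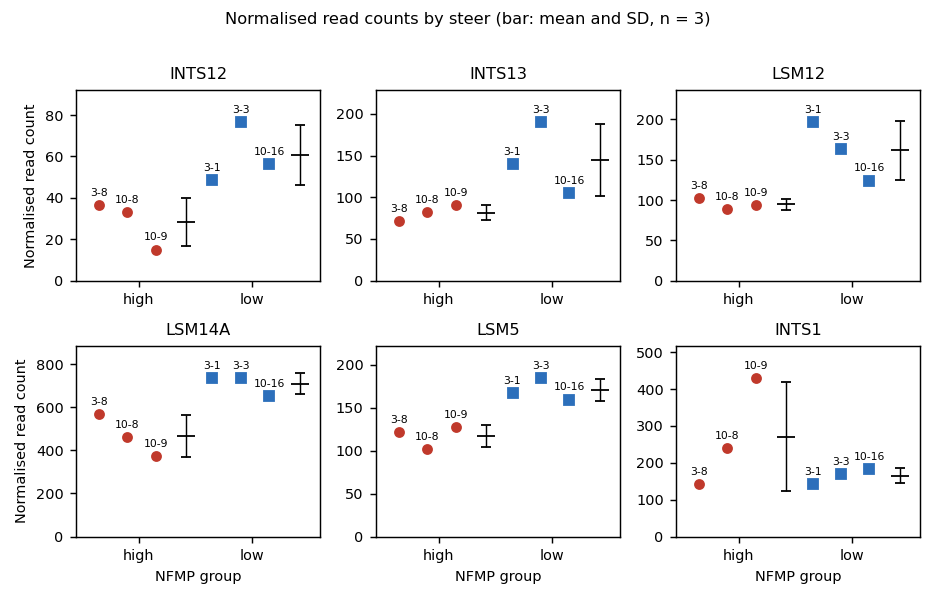
Normalised read counts by steer for the 5 genes with an unadjusted p below 0.05 and for INTS1 (red circles high NFMP, blue squares low NFMP, bars mean and SD, n = 3). In the first 5 panels every high-NFMP steer lies below every low-NFMP steer, and in the INTS1 panel steer 10-9 stands alone at 431.3.

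The Gemins, with SMN, load the Sm ring onto snRNA in the cytoplasm. None of the 6 had an unadjusted p below 0.05, all 6 intervals stayed within a 2-fold change, and the median log2 fold change was -0.0026. GEMIN5, which recognizes the snRNA, had 71.9, 54.5 and 88.3 normalised counts in the high-NFMP steers and 55.5, 78.7 and 71.7 in the low-NFMP steers, which lay within the range of the high-NFMP steers. GEMIN6, the most counted, was at 189.5, 207.8 and 180.5 against 252.6, 170.3 and 171.6 normalised counts, with overlapping groups. The Gemin with the smallest p was GEMIN7, the partner of GEMIN6, at 61.8, 43.3 and 67.2 against 78.5, 71.3 and 67.6 normalised counts, with a log2 fold change of -0.33 (unadjusted p = 0.303 by edgeR), or -0.13 without steer 10-8. Its groups were apart by less than 1 normalised count. GEMIN2, which holds SMN and the Sm proteins, was at -0.01, GEMIN4 at 0.01 and GEMIN8, which joins GEMIN6 and GEMIN7 to SMN, at 0.26.

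The Sm proteins form the ring around the snRNAs made by RNA polymerase II. None of the 8 genes had an unadjusted p below 0.05, and all 8 intervals stayed within a 2-fold change. SNRPD3, the most counted of the 51 genes, had 1457, 1688 and 1304 normalised counts in the high-NFMP steers 3-8, 10-8 and 10-9, against 1617, 1526 and 1405 in the low-NFMP steers 3-1, 3-3 and 10-16. Its log2 fold change was -0.03 (95% interval -0.41 to 0.35), with the low-NFMP steers lying inside the range of the high-NFMP steers. SNRPD1 had the smallest p of the ring (unadjusted p = 0.122 by edgeR), at 465.1, 405.6 and 508.5 against 560.7, 646.8 and 504.8 normalised counts with slightly overlapping groups and a log2 fold change of -0.31. SNRPB was at 0.18, SNRPD2 at 0.15, SNRPE at 0.08, SNRPG at -0.24 and SNRPF at -0.35, the last at -0.63 (unadjusted p = 0.0238 by edgeR) without steer 10-8. SNRPN, the imprinted relative of SNRPB that can take its place in the ring, was at 1175 ± 202 against 1066 ± 88.7 normalised counts (SD, n = 3 each), a log2 fold change of 0.14.

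For the 4 genes of U1 and U2 proteins no unadjusted p was below 0.05 either, and all 4 intervals stayed within a 2-fold change. SNRPC, of the U1 particle, had 697.2, 867.9 and 757.2 normalised counts in the high-NFMP steers and 864.1, 662.6 and 981.3 in the low-NFMP steers, with a log2 fold change of -0.11 (95% interval -0.53 to 0.31). SNRPA, also of U1, was at 0.17. In the U2 particle SNRPA1, with the smallest p of the 4, was at 194.6, 208.9 and 274.8 normalised counts in the high-NFMP steers and 313.9, 199.9 and 266.5 in the low-NFMP steers. The groups overlapped, with a log2 fold change of -0.20 (95% interval -0.71 to 0.30), and SNRPB2 was at -0.06 (95% interval -0.44 to 0.32).

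LSM2 to LSM8 form the ring on U6 snRNA, and LSM1 replaces LSM8 in a ring that helps to degrade messenger RNA. Of these 8 genes, LSM5 alone had an unadjusted p below 0.05. It was at 121.6, 102.2 and 127.4 normalised counts in the high-NFMP steers 3-8, 10-8 and 10-9 and at 167.5, 185.1 and 159.5 in the low-NFMP steers 3-1, 3-3 and 10-16. The groups were apart, and the log2 fold change of LSM5 was -0.54 (SE 0.23, edgeR adjusted p = 0.401). The unadjusted p of LSM5 was no longer below 0.05 without steer 10-8, 3-1, 3-3 or 10-16, with the label number as a term (0.0591) or with age as a term (0.0736). LSM6, the most counted of this ring, was at 514.8, 584.5 and 593.7 against 665.0, 487.7 and 550.2 normalised counts, with overlapping groups and a log2 fold change of -0.01 (95% interval -0.41 to 0.40). LSM8, which makes the ring specific to U6, was at -0.23 with the groups apart, and LSM1 was at 0.15 with steer 10-9 at 301.9 normalised counts and the other high-NFMP steers at 128.7 and 141.1. LSM2, LSM3, LSM4 and LSM7 lay between 0.04 and 0.33.

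The LSM proteins outside these rings held the remaining genes with a low p. LSM14A, a component of processing bodies that represses translation, had 566.5, 461.2 and 374.1 normalised counts in the high-NFMP steers and 737.8, 736.6 and 652.2 in the low-NFMP steers. The groups were apart, and the log2 fold change of LSM14A was -0.60 (SE 0.20, edgeR adjusted p = 0.245). It was the only one of the 51 genes with an unadjusted p below 0.05 in all 14 alternative fits, its log2 fold change lying between -0.77 and -0.45. LSM12, which carries an LSM domain and is not part of a known snRNP ring, had 102.4, 88.9 and 93.3 against 197.1, 163.8 and 124.2 normalised counts, a log2 fold change of -0.77 (SE 0.26, edgeR adjusted p = 0.251), and its unadjusted p was above 0.05 without steer 3-1 or with age as a term. LSM14B, the relative of LSM14A, was at 543.2, 624.5 and 644.9 against 558.8, 641.3 and 746.1 normalised counts, with overlapping groups and a log2 fold change of -0.10 (95% interval -0.50 to 0.30). LSM10 and LSM11 belong to the U7 particle, which processes histone messenger RNA, and were at 0.03 and 0.43. LSM11 was counted between 21 and 55 times in a library, and its interval from -0.50 to 1.36 leaves a change of over 2-fold within it.

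**Figure D4:**
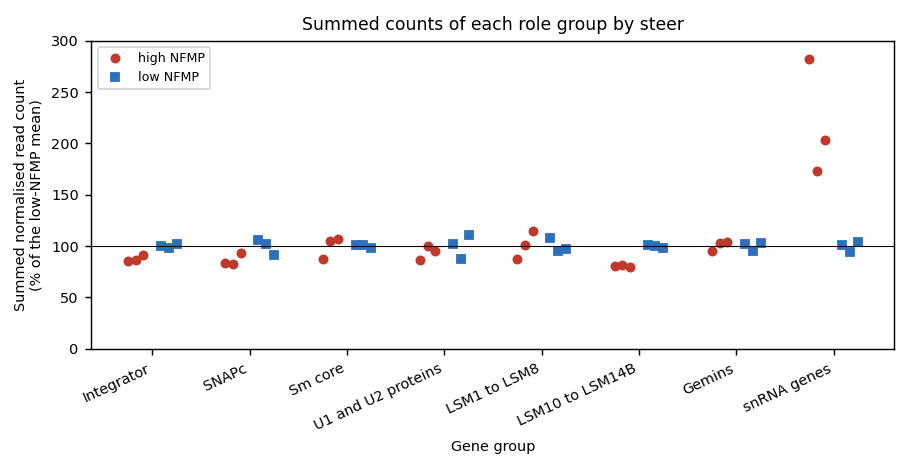
Summed normalised read count of each role group in each steer, as a percentage of the low-NFMP mean (red circles high NFMP, blue squares low NFMP). The high-NFMP steers lie between 79.3% and 81.8% for LSM10 to LSM14B and between 85.3% and 91.4% for Integrator, both apart from the low-NFMP steers, overlap them in the other 5 role groups, and lie between 172.9% and 282.4% for the snRNA genes. In the LSM10 to LSM14B sum, LSM14A (467.2 against 708.8 on average) and LSM12 (94.8 against 161.7) were lower with the groups apart, while LSM10, LSM11 and LSM14B had log2 fold changes of 0.03, 0.43 and -0.10.

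The high-NFMP steers also differed among themselves. Over the 51 genes, steer 3-8 was the lowest of the 3 high-NFMP steers in 24 and the highest in 11, and steer 10-9 was the lowest in 13 and the highest in 26. Over all tested rows steer 3-8 was lowest in 30.6% and highest in 38.9%, and steer 10-9 was lowest in 35.4% and highest in 31.6%. In SNRPB, for example, steer 3-8 was lowest and steer 10-9 highest, at 607.0, 799.0 and 1037 normalised counts in steers 3-8, 10-8 and 10-9 and between 689.0 and 756.0 in the low-NFMP steers. SNRPF had another order, with 202.7, 305.6 and 152.4 in the same high-NFMP steers and steer 10-9 lowest, as it was in SNRPD3. Steer 3-8 was also the one with the highest summed count of adipocyte markers and of snRNA genes. Over the 51 genes the median coefficient of variation was 17.4% in the high-NFMP and 13.2% in the low-NFMP group, beside 22.9% and 18.0% over all tested rows. Here too the rows were not matched to the 51 genes in count level.

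The rest of the pathway was taken from 5 lists covering the SMN complex and methylosome, export, import and capping, 3′ end and U6 processing, snRNA transcription, and the proteins of single particles. Of their 71 symbols 70 were in the count table and tested, with a median log2 fold change of -0.0039. An unadjusted p below 0.05 was reached by 5 as higher and 1 as lower, 8.57% of the 70 beside 11.5% of all tested rows, and none had an adjusted p below 0.05 by edgeR (smallest 0.285), by DESeq2 or by limma after quantile normalization. These counts moved with the fit, to 7 higher and 5 lower without steer 3-8, 1 and 0 without steer 3-1, and 1 and 1 with the label number as a term. SMN, the centre of the assembly complex and listed as SMN2, was at 30.4, 57.8 and 42.1 normalised counts in the high-NFMP steers and 67.0, 53.7 and 49.5 in the low-NFMP steers, with a log2 fold change of -0.39 (95% interval -1.15 to 0.38). It was -0.19 without steer 3-8, -0.61 without steer 10-8 and -0.15 with age as a term. PRMT5, which methylates Sm proteins, was at 0.35 (95% interval -0.36 to 1.06), with steer 10-9 at 456.3 and all others between 169.4 and 262.5, and without steer 10-9 the log2 fold change of PRMT5 was -0.17. SNRNP70, the U1 70K protein, was at 0.03 (95% interval -0.39 to 0.44).

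Of the 14 genes listed for 3′ end and U6 processing, 3 were higher and 1 was lower at an unadjusted p below 0.05, 28.6% beside 11.5% of all tested rows. It was the only list of the 5 above that share. The SMN complex and methylosome list (7 tested genes) and the export, import and capping list (10) had no such gene. TOE1, an exonuclease that trims the 3′ ends of snRNA, was at 123.6, 128.9 and 134.4 normalised counts in the high-NFMP steers and 71.8, 78.7 and 102.0 in the low-NFMP steers. All high-NFMP steers lay above all low-NFMP steers, and the log2 fold change of TOE1 was 0.62 (SE 0.26, edgeR adjusted p = 0.379). SSB, the La protein that binds the uridine tail of new RNA polymerase III transcripts such as U6, was at 3328, 2058 and 2725 against 4105, 3607 and 3747 normalised counts. Here all high-NFMP steers lay below, with a log2 fold change of -0.50 (SE 0.20, edgeR adjusted p = 0.354). NABP2, a single-stranded DNA binding protein in a complex with INTS3, was at 417.5, 419.0 and 529.5 against 295.7, 318.3 and 377.6 normalised counts, all high-NFMP steers above, with a log2 fold change of 0.46. BRAT1, which binds the INTS9 and INTS11 pair, rose past the threshold with a log2 fold change of 1.73 (SE 0.73, edgeR adjusted p = 0.38), from low normalised counts of 9.12, 12.2 and 30.1 against 0.957, 9.25 and 5.05 with overlapping groups. BRAT1 was no longer past the threshold without steer 10-9 (1.06), 3-1 (1.24) or 10-16 (1.76), with the label number (1.43) or age (1.47) as a term, or by limma after quantile normalization (1.44), and it was left out where every library needed 10 counts. The unadjusted p of TOE1 stayed below 0.05 in 8 of 14 alternative fits, that of SSB in 9 and that of NABP2 in 7. It was above 0.05 for TOE1 and NABP2 with the label number (0.0557 and 0.0711) or age (0.122 and 0.0982) as a term, and for SSB with age (0.0876) but not with the label number. In the list of proteins of single particles, 2 of 26 genes had an unadjusted p below 0.05, 7.69% beside 11.5% of all tested rows. The median log2 fold change of that list was 0.10. SF3A1, a subunit of the U2 particle and 1 of these 2, was at 333.4, 450.1 and 495.4 against 244.0, 246.1 and 341.2 normalised counts. The other was its partner SF3A2, at 218.9, 435.6 and 379.1 against 259.3, 183.2 and 251.4. They had log2 fold changes of 0.62 and 0.57 (edgeR adjusted p = 0.285 and 0.417), both with overlapping groups. The unadjusted p of SF3A1 was below 0.05 in 12 and that of SF3A2 in 7 of 14 alternative fits, with SF3A2 at 0.34 (unadjusted p = 0.195) with the label number as a term. The third subunit SF3A3 was at 0.40 (unadjusted p = 0.0773 by edgeR). The 13 genes of snRNA transcription, which include the SNAPc partners POU2F1 and ZNF143, had no unadjusted p below 0.05 and a median of -0.17.

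Some of the 51 genes overlap other genes, and their counts may hold reads of both. In the RefSeq table of ARS-UCD2.0, an assembly other than the one the study mapped to, 20 of the 51 overlap another gene and 13 overlap one that was also tested. None of the 5 genes with an unadjusted p below 0.05 was among those 13, but LSM14A overlaps the pseudogene LOC112442480 by 96 bases, for which no count was matched. LSM4 and the noncoding LOC101902444 had nearly equal normalised counts, at 426.6 and 418.3 in the high-NFMP group and 414.5 and 382.7 in the low-NFMP group, the ratio in single steers lying between 0.89 and 1.00. SNAPC5 and MAP2K1 stood at ratios between 0.944 and 1.10, and INTS11 and PUSL1 at ratios between 0.834 and 0.932. SNAPC5, among the 9 genes with all high-NFMP steers below, had a log2 fold change of -0.20, and MAP2K1 had -0.21. SNRPD1 and ESCO1 were less alike, with ratios between 0.645 and 1.18. INTS6 and SERPINE3 had log2 fold changes of opposite sign, at -0.39 (unadjusted p = 0.106 by edgeR) and 0.87. So did INTS9 and EXTL3 (-0.28 and 0.40), LSM11 and CLINT1 (0.43 and -0.27), and INTS5 and CSKMT (0.06 and -0.09). How many reads were counted on both genes of a pair was not tested. The use of strand in counting is not stated in the methods or labels.

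**Figure D5:**
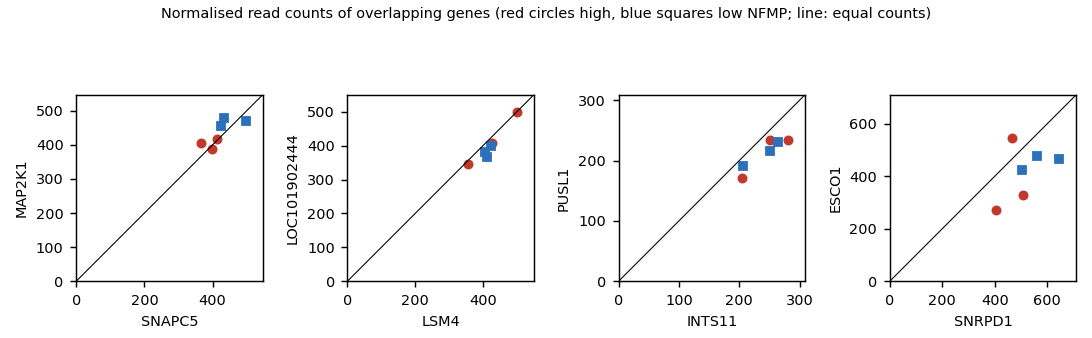
Normalised read counts of 4 genes (horizontal axes) and of the genes that overlap them (vertical axes) in each steer, with a line at equal counts. The LSM4 pair lies close to the line, with ratios between 0.89 and 1.00, and the SNRPD1 pair scatters most, between 0.645 and 1.18.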

How the data were processed

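The authors made 3′ mRNA libraries from LT muscle and deposited, for each steer, 1 table of raw counts of reads by gene symbol. The methods name Tophat2 with HTSeq in one place and Bowtie2, with unique and multiple alignments, in another, and the labels name Bowtie2 and bedtools. The sources used here do not say which made the deposited counts. The counts were read as deposited and analysed in R 4.3.3 with edgeR 4.0.16 (default filter with minimum count 10 and minimum total 15, TMM factors, robust dispersions, quasi-likelihood test, Benjamini-Hochberg adjustment over 15039 rows). Normalised counts are counts divided by the effective library size relative to its mean. Standard errors come from the log2 fold change and the F statistic, and 95% intervals from these and the total degrees of freedom. DESeq2 1.42.0 and limma 3.58.1 (on quantile-normalized log2(count + 1)) were alternatives. Groups were taken from the sample labels. An exact permutation test of 3 against 3 steers cannot give a p below 0.1. Intervals are for the difference between the groups, with a dispersion that draws on other rows, and are not ranges of steer values. They rest on the steers of this set alone.

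Gene types and overlaps came from the RefSeq table of ARS-UCD2.0, in which all 51 symbols were found. No coordinates are printed, as the paper names UMD3.1. The genes, role groups and pathway lists were chosen with earlier results of these data known. Per-steer values are given for genes at an unadjusted p below 0.05 and, per role group, for the gene with the smallest p and the one with the most counts, and further values were chosen after they were seen. The procedures were tested on simulated counts.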

Additional observations from a re-analysis of the deposited data

How the results depend on the processing

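The fits were repeated unfiltered, with a minimum of 10 counts in each library, with RLE factors, with library totals, in DESeq2, in limma after quantile normalization, with a term for age, with a term for the number that opens the steer label, and leaving out 1 steer at a time. No gene of the 51 had an adjusted p below 0.05 in any of these 14 fits, and none of the 70 tested genes of the pathway lists did. With a steer left out, between 0 (without steer 10-9 or 3-3) and 2 (without steer 3-8) of the 51 passed the p and fold change threshold, between 0 and 1 as higher (INTS1, without steer 3-8). Between 2 (without steer 3-3) and 8 (without steer 3-8) had an unadjusted p below 0.05, and the median log2 fold change of the 51 lay between -0.12 and -0.0065 (without steer 10-16), and between -0.17 (label number as a term) and -0.034 (age as a term) over the other fits. The medians of Integrator and SNAPc stayed below 0 in all 14 fits, and those of the other 5 role groups changed sign in at least 1. Without a filter the median of the snRNA genes was 0.53 over 280 rows instead of 1.59 over 65, since rows with few counts entered. With the number that opens the steer label as a term (1 steer against 2 within each number), 4 of the 51 had an unadjusted p below 0.05, all 4 among the 5 of the fit without it. The labels pair no single steers. Genes with few counts, such as INTS6L, had wide intervals.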
